A study of Homo sapiens with 9 samples.

Results

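The 46 genes described here encode the factors that carry human cytoplasmic translation from initiation to release. They were taken by symbol from the rows of the deposited count table, which holds 58347 gene IDs. The list has 6 genes of start codon scanning and the ternary complex, 5 of the exchange factor eIF2B, 13 of eIF3, 9 of cap binding, helicase and scaffold, 2 of poly(A) binding, 2 of subunit joining, 7 of elongation and 2 of release. All 46 were found, and all 46 were among the 23675 genes tested.

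RNA came from K562-FIRE cells, a derivative of the K562 erythroleukaemia line. The line stably carried dCas9, which binds DNA without cutting it, the fusion MS2-Fkbp, and SS18-Frb, a fusion of a BAF chromatin remodelling subunit. The labels place all 3 parts behind the EF1a promoter, with blasticidin, hygromycin and puromycin selection, and do not say whether the line is 1 clone. Cells with a guide RNA (sgRNA) to the HBG1 promoter received DMSO (n = 3) or 10 nM rapamycin (n = 3) for 24 h. Cells with a non-targeting sgRNA received DMSO (n = 1, replicate 2) or 10 nM rapamycin (n = 2, replicates 1 and 2) for 24 h. The study asked whether endogenous BAF brought to HBG1 can activate it. Rapamycin joins Fkbp to Frb, and it is also known to inhibit the kinase complex mTORC1, whose activity these counts do not measure. Both actions of the drug can come with every rapamycin library whatever the guide, so in a comparison with DMSO they cannot be told apart. Nothing in the labels says whether replicates were separate cultures, so p-values measure the spread between these libraries, which may be technical.

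In translation initiation, eIF2 carries the initiator tRNA to the small ribosomal subunit, eIF3 organises the factors on that subunit, and eIF4F recruits the capped mRNA. eIF2B reloads eIF2 with GTP after each round. EEF1A1 then delivers each aminoacyl-tRNA, EEF2 moves the ribosome along, and ETF1 with GSPT1 ends the chain at a stop codon. mTORC1 is known for controlling this machinery through the eIF4E-binding proteins and through mRNAs that begin with a 5' terminal oligopyrimidine (TOP) run. TOP mRNAs encode ribosomal proteins and several translation factors, and their translation falls when mTORC1 is inhibited.

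The libraries held 19797409 to 31619671 counts, and the replicates of a group differed by more than counting noise. HBG1, the gene the guide addresses, stood at 137 to 436 CPM (counts scaled to the same library total) with its guide under DMSO and at 1533 to 2448 CPM under rapamycin. It stood at 8233 CPM in the non-targeting DMSO library and at 8851 and 8944 CPM in the non-targeting rapamycin libraries, above every library labelled with the HBG1 sgRNA. Guides are named as labelled throughout. The 12 erythroid markers of K562 were each above 1 CPM. Their summed level was higher under rapamycin with both guides, at 33399 CPM under DMSO and 39362 under rapamycin with the HBG1 sgRNA and at 24485 and 32588 with the non-targeting sgRNA. With the HBG1 sgRNA 11 of the 12 lay above 0 (median log2 change 0.22), ALAS2 and GATA1 rose and TFRC fell, and with the replicate number as a block 7 rose and 1 fell. Of all genes tested 6.8% were called, and 17.1% with the block. With the non-targeting sgRNA 9 of the 12 lay above 0 and 3 below. Of the markers of T cells, B cells, monocytes and fibroblasts, 7 of 23 passed 1 CPM, with summed levels by group of at most 26.7 CPM in any list. Of the 5 epithelial markers 3 passed it, and their sum was 624 to 743 CPM. The part of these markers in the results below was not tested. Replicate 1 stood apart: its DMSO and rapamycin libraries deviated together from their group means (r = 0.553 over 11498 genes). In cultures sequenced whole, less RNA per cell and fewer cells holding it cannot be told apart.

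Levels between genes are given as TMM-scaled CPM per kb of annotated exon, averaged over all 9 libraries. EEF1A1, which brings tRNAs to the ribosome, was the most abundant factor at 2088 ± 206 CPM per kb (SD, n = 9). EEF2, the translocase, followed at 1043 ± 134, and EEF1G, a structural subunit of the exchange complex for EEF1A1, at 712 ± 32.5. The poly(A)-binding protein gene PABPC1 stood at 413 ± 35.9. These 4 genes kept this order in every library, since the lowest library of each lay above the highest of the next. From EIF5A (190 ± 10.6) downward the ranges of neighbours overlapped for most genes. The median of the 46 was 54.2 CPM per kb. The 13 eIF3 subunits, which share 1 complex, spread from 23.9 (EIF3F) to 165 (EIF3I) CPM per kb, and EIF2B2 was lowest of all at 3.52. The length used joins all annotated exons of a gene, 9431 bases for EIF3F and 1725 for EIF3I, whichever transcripts these cells make. Before division by length EIF3F averaged 212 CPM and EIF3I 319 in the HBG1 sgRNA DMSO libraries. Much of that spread therefore comes from the length, and the order of other genes rests on it too. The coefficient of variation over the 9 libraries was 4.56% to 17.0%, with a median of 9.85%.

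**Figure D1:**
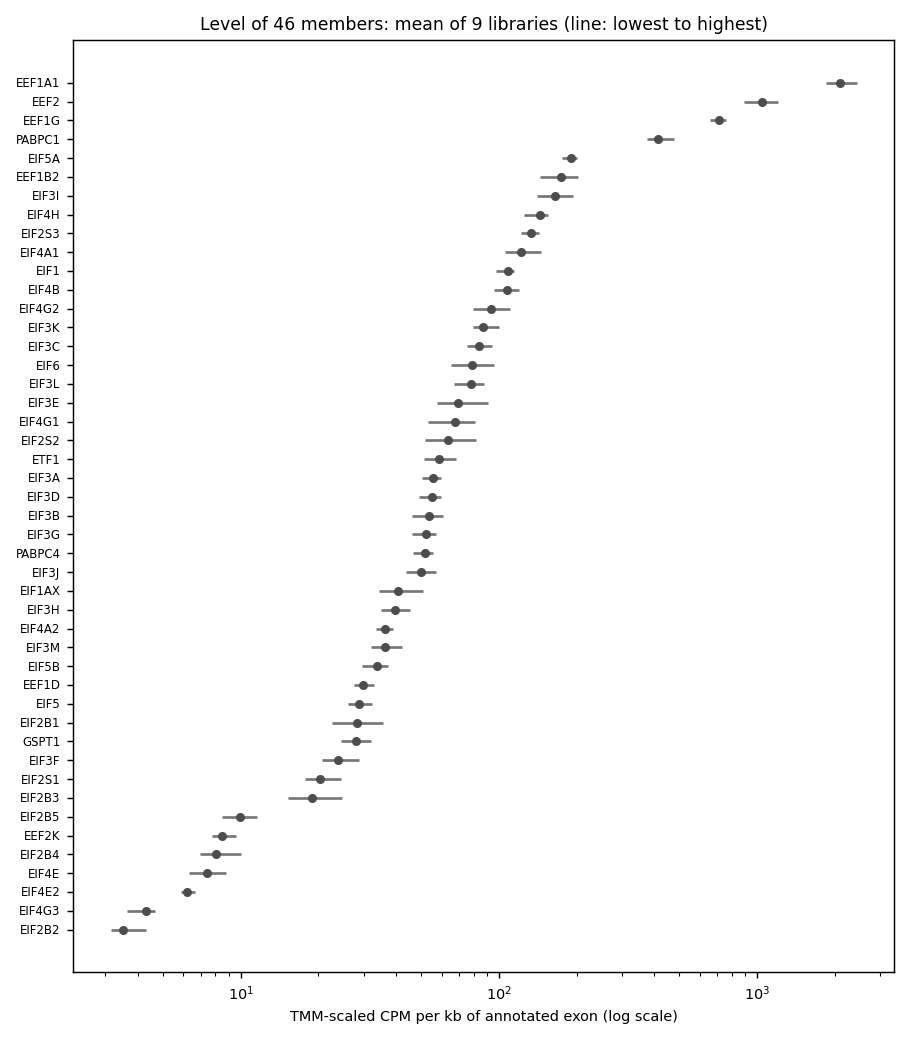
Mean TMM-scaled CPM per kb of annotated exon (log axis) of the 46 factor genes; points are means of 9 libraries and lines run from the lowest to the highest library. EEF1A1 at 2088 and EEF2 at 1043 CPM per kb stand at the top, and EIF2B2 at 3.52 at the bottom.

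Some of these counts are shared between annotated genes. EIF3C and its near-identical copy EIF3CL held almost the same counts, with EIF3CL at 97.1% to 98.0% of EIF3C in each library, so the copies cannot be told apart. EEF1G shares 2714 exon bases with the readthrough gene AP002990.1, which held 102% of its counts. EIF4A1 shares 1586 with the readthrough gene SENP3-EIF4A1, which held 107%. The 39 named EEF1A1 pseudogenes together held 10.5% to 13.5% of the EEF1A1 counts. The strand setting is not given in the sources used here, so members that overlap a gene on the opposite strand, such as EIF2B1 (536 exon bases shared with DDX55), are uncertain to that extent.

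With the HBG1 sgRNA, rapamycin lowered a larger number of factors than it raised. Of the 46 genes, 12 were lower, 1 was higher (EEF2) and 33 did not pass an adjusted p of 0.05 (edgeR quasi-likelihood test, Benjamini-Hochberg adjustment over all genes tested). The 13 calls are 28.3% of the list. Across all 23675 genes 6.80% were called, 2.75% higher and 4.05% lower, and among the 8563 genes at least as abundant as the least abundant member 14.3% were called (4.33% higher, 10% lower). Changes ran from -0.46 (EIF2B1, -27.3%) to 0.33 (EEF2, 26.0%) on the log2 scale. The median over the 46 was -0.12, beside 0.02 for all genes tested and -0.06 for the abundant ones. Of the 46, 34 lay below 0, and of the abundant genes 61.9% did. All 13 called genes had CPM ranges of the 2 arms that did not overlap. Over the whole list the arms did not overlap for 26 genes (23 lower, 3 higher), beside 25.3% of all genes tested and 37.6% of the abundant ones. In 3 of 3 replicate pairs 28 were lower and 9 higher, while 45.3% of all genes tested went in one direction or the other in 3 of 3 pairs.

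These counts depended on single libraries and on the pairing. Without DMSO replicate 2 only 4 members were called, without rapamycin replicate 3 it was 5, and without DMSO replicate 3 it was 7. Same-numbered HBG1 sgRNA libraries deviated together (r = 0.553, 0.278 and 0.232), but crossed libraries of replicates 2 and 3 did so too (0.258 and 0.194). These values set replicate 1 apart and leave the pairing of replicates 2 and 3 uncertain. With replicate number as a block on the 6 HBG1 sgRNA libraries 24 members were called, 19 lower and 5 higher. All 13 first calls were among the 24. The block raised the calls over all genes too, to 17.1% of 20179 genes (7.43% higher, 9.62% lower), and to 29.6% of the abundant ones (9.73% higher, 19.8% lower). With both libraries of replicate 1 left out, 18 members were called (15 lower, 3 higher). EIF1AX, EIF2B1, EIF4G2 and EEF2 were called under each of the 20 alternatives tried.

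**Figure D2:**
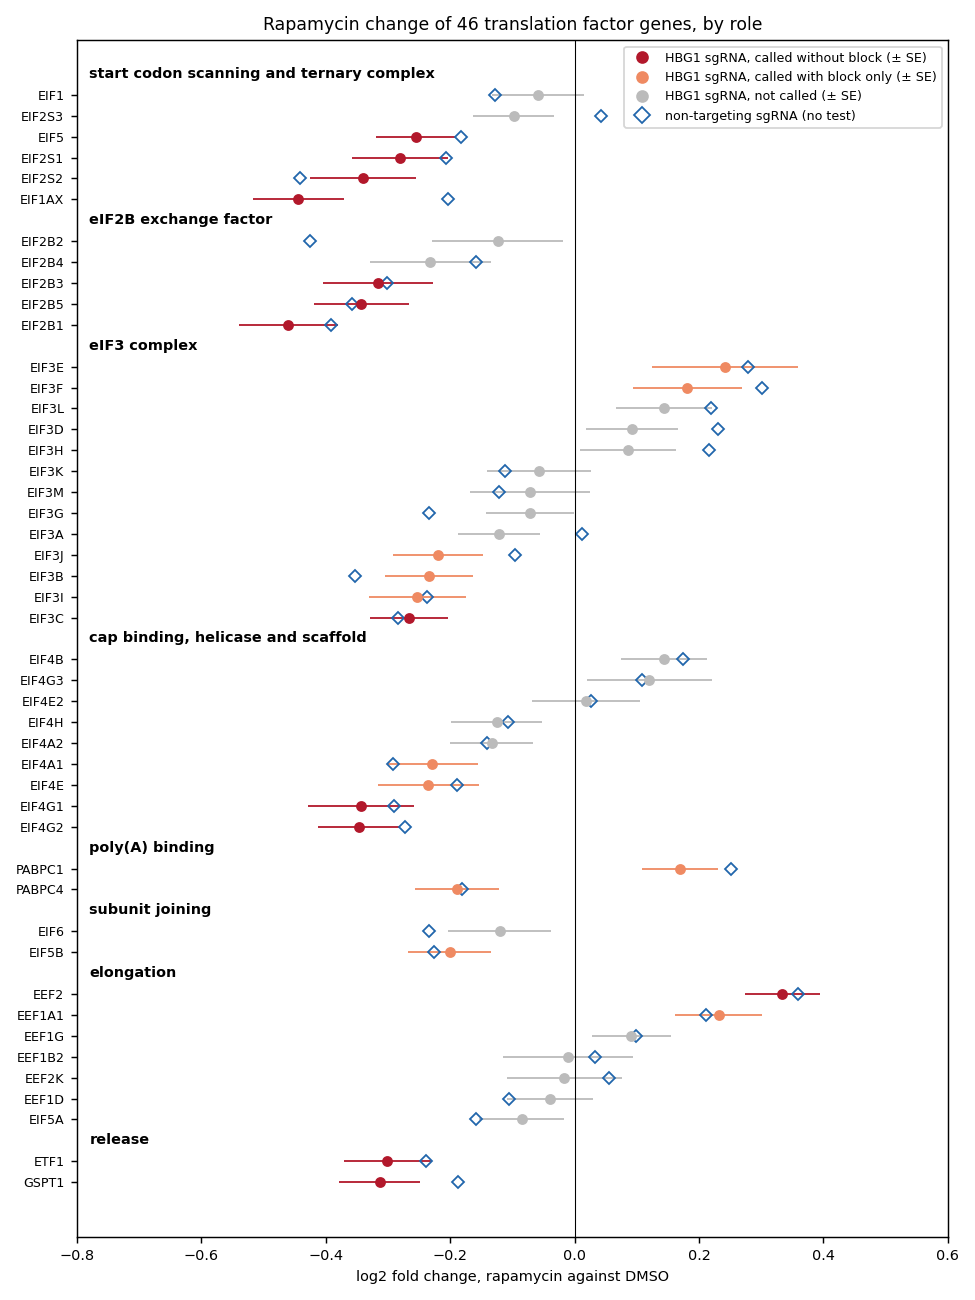
Log2 fold change of rapamycin against DMSO for the 46 factors, grouped by role; filled points with SE bars are the HBG1 sgRNA (3 libraries an arm), open diamonds the non-targeting sgRNA (2 libraries against 1, no test). The eIF2B, scanning and release factors lie left of 0, from -0.06 (EIF1) to -0.46 (EIF2B1) with the HBG1 sgRNA, while EEF2 (0.33) and EEF1A1 (0.23) lie right of it.

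The start sites of the 4 highest and the 5 lowest changes among members with a RefSeq entry are shown because TOP mRNAs are defined by their first bases. Each line is 30 bases of RefSeq sequence (GRCh38.p14), from 10 before the RefSeq start to the 20th base of the transcript, read 5' to 3' on the gene's strand. Capitals mark a run of at least 5 pyrimidines (C or T) that begins with C within 5 bases of the start. The first 4 genes are on a list of 10 members known as TOP mRNAs. The next 5 all fell.
EEF2: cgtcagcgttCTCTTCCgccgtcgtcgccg
EEF1A1: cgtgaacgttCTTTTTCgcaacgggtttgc
EIF3F: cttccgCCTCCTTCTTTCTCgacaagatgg
EIF4B: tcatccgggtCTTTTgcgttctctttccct
EIF2B1: gtacggaagtgcgccggaagtggggtgcgg
EIF1AX: gagtcgcggcgccatttgctgccgccgagc
EIF4G2: tgtcggaagcaCTTCCCTaacttgcgcctg
EIF4G1: gcggggagccggaaatggttgtggactacg
EIF2B5: cagcttccttgcggaagtggtgaccgtgag
These windows lie at chr19:3985444-3985473 (minus strand, EEF2), chr6:73521013-73521042 (minus, EEF1A1), chr11:7987327-7987356 (plus, EIF3F) and chr12:53006446-53006475 (plus, EIF4B). The others are chr12:123633667-123633696 (minus, EIF2B1), chrX:20141819-20141848 (minus, EIF1AX), chr11:10807977-10808006 (minus, EIF4G2), chr3:184314596-184314625 (plus, EIF4G1) and chr3:184135348-184135377 (plus, EIF2B5). EEF2 and EEF1A1 have a 7-base run that begins exactly at the start. EIF4G2, which fell, has a 7-base run as well, but that run begins 1 base after the start. A run as defined here is thus not held by the higher genes alone.

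Of the 46 members 37 matched a RefSeq promoter, and 15 of those 37 (40.5%) had such a run, beside 5749 of 27305 promoters in the whole table (21.1%). Members without an entry were EIF2S2, EIF3A, EIF3E, EIF3G, EIF3H, EIF3L, EEF1D, PABPC1 and PABPC4. Of the 8 matched members with a change above 0, 6 had the run, and of the 29 below 0, 9 had it. Not all of these runs lie in the transcript. The runs of EIF1, EIF3C and EEF2K, all below 0, have 5 bases from -5 on and end before the start. Runs that begin exactly at the start were those of EEF2, EEF1A1 and EIF4B (above 0) and EIF4A2 (below 0). The 15 members with a run had a median log2 change of -0.06 and the 22 without had -0.24. On the TOP list, 4 of 6 matched members had a run. EEF1G and EEF1B2 had none at their RefSeq starts. The run describes 1 annotated start per gene, and the starts used in these cells were not analysed here.

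**Figure D3:**
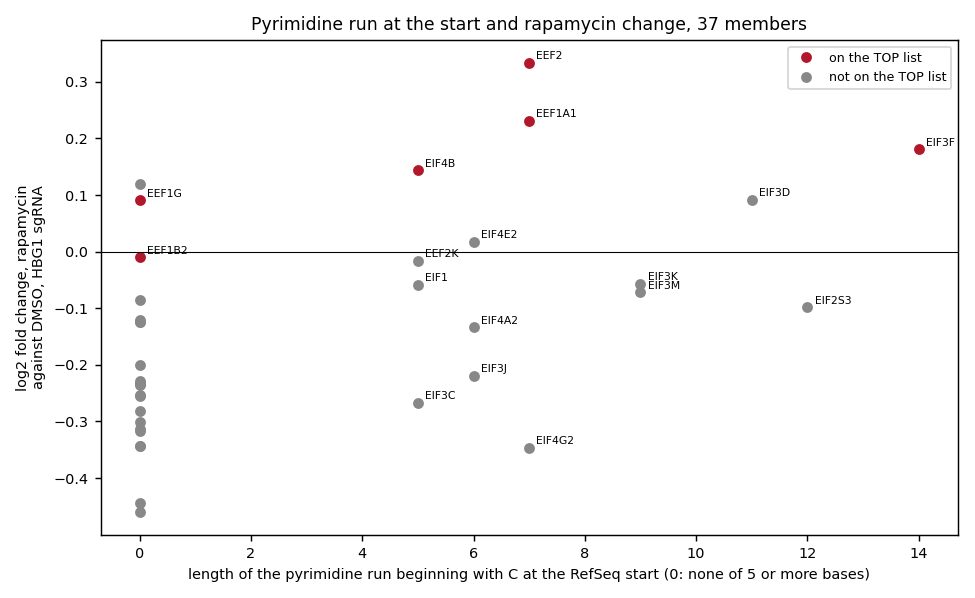
Length in bases of the pyrimidine run that begins within 5 bases of the RefSeq start (x axis), for 37 members. The length is 0 where there is no run of at least 5. The y axis is the log2 fold change of HBG1 sgRNA libraries, rapamycin over DMSO. Of the 15 members with a run 6 lie above 0, and of the 22 without one 2 lie above 0.

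The motif CACGTG, an E-box that MYC and MAX bind, was searched on both strands from 250 bases before to 50 after the start. It occurred in 8 of the 37 matched members (21.6%) and in 7.4% of all promoters. EIF4E had it at -225 and -72 and EIF4G1 at -144 and -67, counted from the start. EIF2B3, EIF3F, EIF3K, EIF4B, EIF4H and EEF2K had it at 1 place each. By direction of change, 2 of the 8 matched members above 0 and 6 of the 29 below 0 had it. TGATGNAAN, a composite element of ATF4 and C/EBP factors, was found in 0 of 37 and in 3.7% of all promoters. Neither motif has a test here.

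Most of the 10 TOP-list members and most of the other 36 lay on opposite sides of 0. The list was chosen with earlier results of these data known, and the split has no test. Genes outside the list can have a long run too, such as EIF2S3 (12 bases, -0.10) and EIF3D (11 bases, 0.09). The list holds EEF1A1, EEF1B2, EEF1D, EEF1G, EEF2, EIF3E, EIF3F, EIF3H, EIF4B and PABPC1. With the HBG1 sgRNA its median log2 change was 0.16, with 8 of 10 above 0 and 7 higher in 3 of 3 pairs. One was called (EEF2, higher), and with the replicate block 5 were, all higher. The other 36 had a median of -0.21, with 32 below 0 and 27 lower in 3 of 3 pairs. Of these 12 were called, and 19 with the block, all lower. Among the abundant genes 4.33% were called higher and 10% lower, and with the block 9.73% and 19.8%. Without the block the 1 TOP-list call is 10% of its list, below the 14.3% of abundant genes called in either direction. Under the 20 alternatives the TOP-list median ran from 0.10 to 0.20 and that of the other 36 from -0.23 to -0.17. Rapamycin replicate 1 moved the first most, which was 0.10 without it. For comparison, 22.6% of all genes tested were higher and 22.4% lower in 3 of 3 pairs, and of the abundant genes 20.3% were higher and 40.0% lower. As a share of all counts the 10 TOP-list genes took 2.17%, 2.03% and 2.03% in DMSO replicates 1, 2 and 3 and 2.49%, 2.44% and 2.44% in rapamycin replicates 1, 2 and 3. The other 36 took 1.04%, 1.06% and 1.04% under DMSO and 0.912%, 0.942% and 0.928% under rapamycin. The arms did not overlap in either share, and the 2 shares moved in opposite directions. Most of the first share is EEF1A1 and EEF2, which took 1.46% to 1.59% under DMSO and 1.81% to 1.85% under rapamycin.

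**Figure D4:**
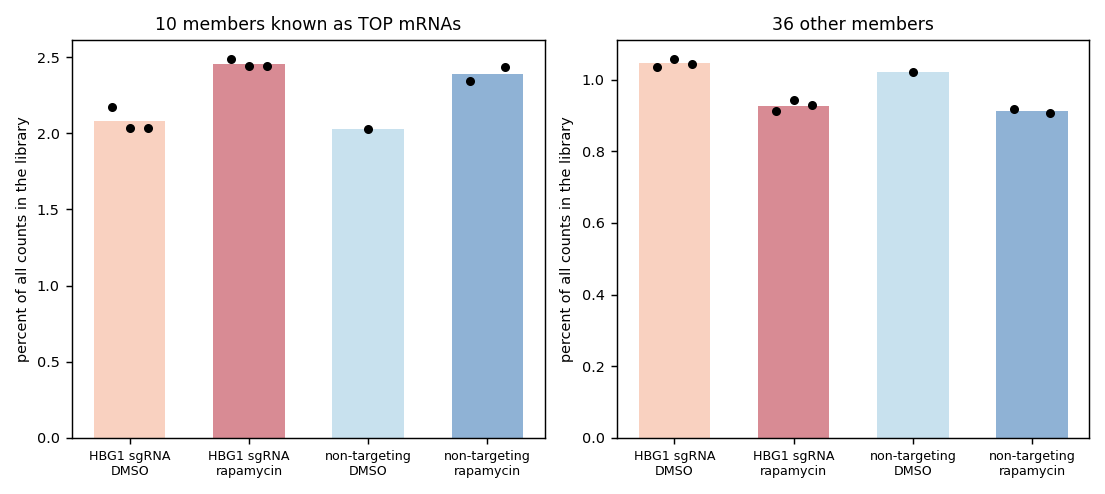
Percent of all counts in each library taken by the 10 members known as TOP mRNAs (left) and by the 36 other members (right); points are libraries and bars their group means. The left share is 2.03% to 2.17% under DMSO and 2.34% to 2.49% under rapamycin, while the right share is 1.02% to 1.06% under DMSO and 0.906% to 0.942% under rapamycin.

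Elongation held the 1 factor that rose without the block. EEF2 (ENSG00000167658, chromosome 19, 3976056 to 3985469, GRCh38) stood at 3577, 3654 and 3681 CPM in DMSO replicates 1, 2 and 3 and at 4397, 4838 and 4515 CPM in rapamycin replicates 1, 2 and 3. All rapamycin libraries lay well above all DMSO libraries. The log2 fold change was 0.33 (SE 0.06, adjusted p = 0.00364). EEF2 was as high in the non-targeting rapamycin libraries, at 4779 and 4680 CPM, against 3686 CPM in the non-targeting DMSO library. EEF1A1 (ENSG00000156508, chromosome 6, 73515750 to 73523797) stood at 12677, 10961 and 10934 CPM under DMSO and at 14487, 12906 and 13194 CPM under rapamycin. The arms did not overlap, but DMSO replicate 1 came close to the lowest rapamycin library. Its log2 fold change of 0.23 (SE 0.07) missed the threshold without the block (adjusted p = 0.0575) and was with it (adjusted p = 0.00265).

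The exchange subunits that recharge EEF1A1 showed smaller values. EEF1G (ENSG00000254772, chromosome 11, 62559601 to 62574086) stood at 1983, 1845 and 1785 CPM under DMSO and at 2048, 1988 and 1943 CPM under rapamycin. These ranges overlap, and the log2 fold change of 0.09 (SE 0.06, adjusted p = 0.464) was not called. EEF1B2, a nucleotide exchange subunit, was at -0.01 (SE 0.10) and its partner EEF1D at -0.04 (SE 0.07). EIF5A, which helps the ribosome past difficult peptide bonds, was at -0.09 (SE 0.07). EEF2K, the kinase that inhibits EEF2, was at -0.02 (SE 0.09). None of these 4 was called in either fit.

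All 5 genes of eIF2B lay below 0, with a median log2 change of -0.32, and 3 of 5 fell. EIF2B1, the alpha subunit (ENSG00000111361, chromosome 12, 123620406 to 123633766), stood at 117, 129 and 117 CPM in the 3 DMSO libraries and at 87.6, 95.1 and 81.7 CPM in the 3 rapamycin libraries. The arms lay clear of each other, and the change of -0.46 (SE 0.08, adjusted p = 0.00269) was the lowest of the 46. Its non-targeting values were close to these, at 117 CPM under DMSO and 88.1 and 89.9 CPM under rapamycin. EIF2B5, the catalytic epsilon subunit (ENSG00000145191, chromosome 3, 184135038 to 184146112), went from 81.7, 79.2 and 80.6 CPM to 67.2, 60.9 and 62.4 CPM. No library of one arm reached the other, and the log2 fold change was -0.34 (SE 0.08, adjusted p = 0.013). EIF2B3, the gamma subunit (ENSG00000070785, chromosome 1, 44850522 to 44986722), went from 84.2, 68.7 and 72.0 CPM to 63.2, 59.1 and 58.5 CPM. DMSO replicate 1 was its highest library, and its call (-0.32, SE 0.09, adjusted p = 0.0417) was the least stable of the 13, lost under 11 of 20 alternatives. Among these were the fits without any 1 of the HBG1 sgRNA libraries other than rapamycin replicate 1, and without either non-targeting rapamycin library. Upper quartile scaling and library totals were among them too. The EIF2B5 call was lost without rapamycin replicate 3 and without DMSO replicate 2 or 3. EIF2B4 (-0.23, SE 0.10) and EIF2B2 (-0.12, SE 0.11) did not pass in either fit.

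Of the 6 factors that build and check the scanning complex, 4 fell and none rose, and the median was -0.27. EIF1AX (ENSG00000173674, chromosome X, 20124518 to 20141844), which keeps the scanning ribosome open, stood at 219, 226 and 196 CPM under DMSO and at 152, 160 and 160 CPM under rapamycin. The 3 rapamycin libraries were close together and below all DMSO libraries. Its log2 fold change was -0.44 (SE 0.07, adjusted p = 0.00197). With the non-targeting sgRNA EIF1AX was at 185 CPM under DMSO and at 163 and 157 CPM under rapamycin, a change of -0.20. EIF2S2, the beta subunit of eIF2 (ENSG00000125977, chromosome 20, 34088298 to 34112332), went from 216, 187 and 183 CPM to 171, 144 and 148 CPM. Replicate 1 was its highest library in both arms, and the arms did not overlap (-0.34, SE 0.08, adjusted p = 0.0238). EIF2S1, the subunit phosphorylated in the stress response, went from 138, 127 and 125 CPM to 116, 100 and 104 CPM (-0.28, SE 0.08, adjusted p = 0.0389). EIF5, which stimulates GTP hydrolysis by eIF2, went from 266, 262 and 274 CPM to 227, 224 and 221 CPM. Its arms were tight and apart (-0.25, SE 0.06, adjusted p = 0.0258). The third eIF2 subunit gene, EIF2S3, was at -0.10 (SE 0.06) and EIF1, which guards start codon choice, at -0.06 (SE 0.07), neither called. Without DMSO replicate 2 or without rapamycin replicate 3, the calls of EIF2S1, EIF2S2 and EIF5 were lost. The EIF5 call was lost also without DMSO replicate 3, the EIF2S2 call without rapamycin replicate 2 or DMSO replicate 1, and the EIF2S1 call without any of these 3. EIF2S1 also lost its call without either non-targeting rapamycin library, which enters the shared estimate of the spread. With upper quartile scaling the EIF5 and EIF2S1 calls were lost as well.

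Both release factors fell. GSPT1, the GTPase eRF3a (ENSG00000103342, chromosome 16, 11868128 to 11916082), stood at 246, 258 and 244 CPM under DMSO and at 196, 203 and 202 CPM under rapamycin. ETF1, the stop codon reader eRF1 (ENSG00000120705, chromosome 5, 138506095 to 138543300), stood at 313, 304 and 282 CPM and at 257, 237 and 237 CPM. In neither gene did a rapamycin library reach a DMSO library. The log2 fold changes were -0.31 (SE 0.07, adjusted p = 0.0094) for GSPT1 and -0.30 (SE 0.07, adjusted p = 0.0169) for ETF1. Without DMSO replicate 2 neither was called, and without rapamycin replicate 3 ETF1 was not.

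**Figure D5:**
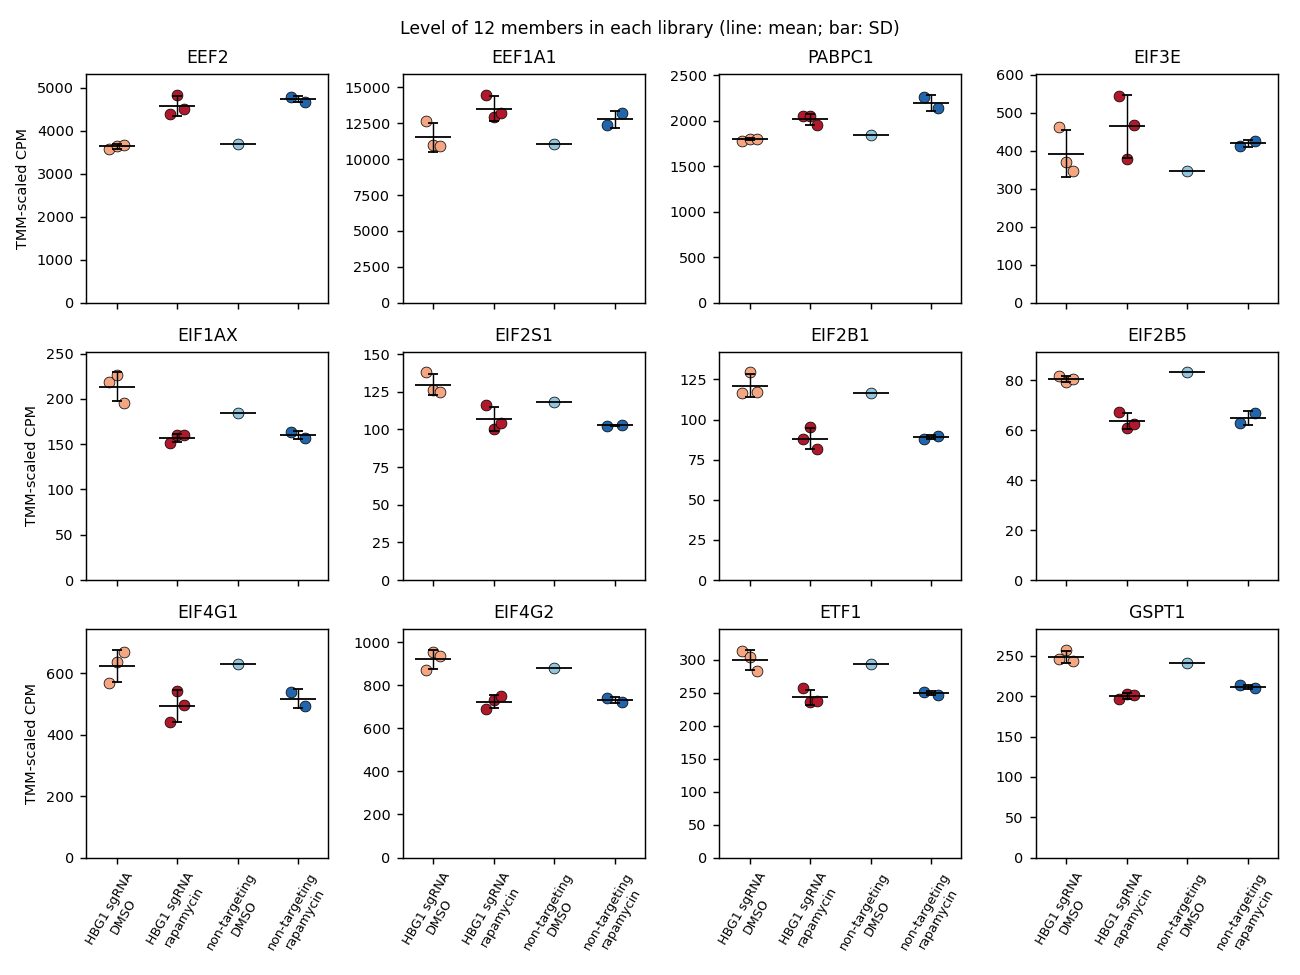
TMM-scaled CPM of 12 factors in each of the 9 libraries, by guide and treatment; points are libraries, lines means and bars SD (none for the single non-targeting DMSO library), and each axis starts at 0. EEF2 is at 3577 to 3681 CPM under DMSO and 4397 to 4838 CPM under rapamycin with the HBG1 sgRNA, and EIF2B1 at 117 to 129 and 81.7 to 95.1 CPM.

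Among the 9 cap-binding, helicase and scaffold genes, the 2 scaffolds EIF4G2 and EIF4G1 fell. EIF4G2, a scaffold that lacks the eIF4E-binding part (ENSG00000110321, chromosome 11, 10797050 to 10809110), stood at 870, 956 and 934 CPM under DMSO and at 690, 733 and 748 CPM under rapamycin. EIF4G1, the main scaffold of eIF4F (ENSG00000114867, chromosome 3, 184314495 to 184335358), stood at 568, 636 and 670 CPM and at 440, 543 and 495 CPM. For both genes replicate 1 was the lowest library of each arm, and the arms did not overlap. The log2 fold changes were -0.35 (SE 0.07, adjusted p = 0.00566) for EIF4G2 and -0.34 (SE 0.09, adjusted p = 0.0231) for EIF4G1. The EIF4G1 call was lost without rapamycin replicate 3, without DMSO replicate 2 or 3, and with library totals in place of TMM scaling. The third paralog, EIF4G3, was at 0.12 (SE 0.10) and was not called.

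The cap-binding protein EIF4E went from 123, 107 and 113 CPM under DMSO to 98.3, 89.1 and 104 CPM under rapamycin, ranges that lie next to each other without overlap. Its change of -0.24 (SE 0.08) was not called without the block (adjusted p = 0.0996) and was with it (adjusted p = 0.0167). The helicase gene EIF4A1 had the same outcome, at -0.23 (SE 0.07), with an adjusted p of 0.075 without and 0.0102 with the block. Its paralog EIF4A2 was at -0.13 (SE 0.07) and the helicase partner EIF4H at -0.13 (SE 0.07). EIF4B, another helicase partner and a TOP-list member, was at 0.14 (SE 0.07), and the cap-binding repressor EIF4E2 at 0.02 (SE 0.09). None of these last 4 was called in either fit.

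The 2 poly(A)-binding genes differed in direction. PABPC1, the TOP-list member, stood at 1779, 1799 and 1800 CPM under DMSO and at 2050, 2051 and 1947 CPM under rapamycin, and PABPC4 at 374, 377 and 372 CPM and at 348, 321 and 316 CPM. The arms of both genes lay apart. The log2 fold changes were 0.17 (SE 0.06, adjusted p = 0.113) for PABPC1 and -0.19 (SE 0.07, adjusted p = 0.111) for PABPC4, and with the block both were called (adjusted p = 0.03 and 0.0321). Of the joining factors, EIF5B, the GTPase that brings the large subunit, was at -0.20 (SE 0.07, adjusted p = 0.089, and 0.0212 with the block). EIF6, which holds large subunits apart from small ones, was at -0.12 (SE 0.08) and was not called.

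The 13 subunits of eIF3 did not move as 1 group. EIF3C was the 1 called without the block (ENSG00000184110, chromosome 16, 28688558 to 28735730). It stood at 636, 648 and 653 CPM under DMSO and at 529, 546 and 535 CPM under rapamycin, with tight arms far apart (-0.27, SE 0.06, adjusted p = 0.0179). These counts are not separable from those of EIF3CL, whose change was also -0.27, and the call was lost without rapamycin replicate 3 and without DMSO replicate 2 or 3. With the block, EIF3B (-0.23, adjusted p = 0.0089), EIF3I (-0.25, 0.0045) and EIF3J (-0.22, 0.0236) were called lower as well, and EIF3E and EIF3F were called higher. EIF3E stood at 462, 370 and 346 CPM under DMSO and at 545, 379 and 468 CPM under rapamycin. Its arms overlap widely, yet each pair rose, so its call (0.24, adjusted p = 0.0157) exists with the block and not without it (adjusted p = 0.257). EIF3F was at 0.18 (adjusted p = 0.0266 with the block and 0.256 without).

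In a grouping made after the values were seen, EIF3A, EIF3B, EIF3C, EIF3G, EIF3I and EIF3J all lay below 0 (median -0.23). Of EIF3D, EIF3E, EIF3F, EIF3H, EIF3K, EIF3L and EIF3M, 5 of 7 lay above 0 (median 0.09). In the non-targeting libraries the medians were -0.24 and 0.22. The first 6 have counterparts in budding yeast, and of the other 7, 3 are on the TOP list. Of the first 6, EIF3A and EIF3C sit in the structural core of the complex together with most of the other 7. A relation of the split to place in the complex was not tested. The split was chosen on these data and has no test.

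The same comparison in cells with the non-targeting sgRNA has 2 libraries against 1, so its values carry no test. Of the 46 factors, 42 (91.3%) had the same sign of change as with the HBG1 sgRNA, beside 68% of all genes tested and 77.3% of the abundant ones. Among the 1609 genes that the HBG1 sgRNA comparison called, signs matched for 97.7%, for 98.5% of the lower and for 96.5% of the higher ones. All 13 called members had the same sign. Changes ran from -0.44 (EIF2S2) to 0.36 (EEF2), with a median of -0.15. Across the 46 genes the 2 sets of changes correlated at r = 0.898 (Spearman 0.873). Over all 23675 genes tested r was 0.189, but only 8563 of these are at least as abundant as the least abundant member. For the abundant genes r was not computed, so the 2 values are not a like comparison. Genes are not independent replicates, and the 2 comparisons share no library. The 4 members of opposite sign were EIF2S3, EIF3A, EEF1B2 and EEF2K, all between -0.12 and 0.05. The TOP-list median was 0.21 and that of the other 36 was -0.19. The TOP-list share of counts was 2.03% in the non-targeting DMSO library and 2.34% and 2.43% under rapamycin, and the share of the other 36 was 1.02% against 0.917% and 0.906%.

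No factor was called between the guides. In HBG1 sgRNA against non-targeting sgRNA libraries under rapamycin, 0 of 46 passed with edgeR, DESeq2 or limma voom, beside 0.0296% of all genes tested with edgeR. Before adjustment 2 had a p under 0.05, beside 1484 of the 23675 genes tested and 787 of the 8563 abundant ones. The 2 members were EIF6 (0.25, SE 0.09) and EIF3G (0.18, SE 0.08), both with an adjusted p of 0.773. Differences ran from -0.15 to 0.25 with a median of 0.01. For the interaction, the rapamycin change with the HBG1 sgRNA less that with the non-targeting sgRNA, 0 of 46 passed with these 3 tools. Over all genes tested 0.00422% passed with edgeR. An unadjusted p under 0.05 was found for 0 of 46, beside 678 of the 23675 genes tested and 166 of the 8563 abundant ones. The interaction values ran from -0.24 (EIF1AX) to 0.30 (EIF2B2) with a median SE of 0.13. Differences of that size between guides were therefore not detectable with a single non-targeting DMSO library, and the values do not show that the guides act alike. Under DMSO the guides differed by -0.25 to 0.21 with a median of 0.04, against 1 library and without a test.

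Genes that control these factors were read from lists beside the members. Of 17 genes of eIF4F control and TOP mRNA binding, 2 rose and 3 fell, with a median of -0.13, and with the block 4 rose and 7 fell. The 6 called with the block alone were EIF4EBP2 and PAIP2, higher, and EIF4EBP1, LARP1, LARP4 and RPS6KB1, lower. These shares stand beside 14.3% of abundant genes called, and 29.6% with the block. PDCD4, an inhibitor of the eIF4A helicase, stood at 45.9 ± 4.63 CPM under DMSO and at 78.6 ± 3.63 CPM under rapamycin (SD, n = 3 each, HBG1 sgRNA). It rose by 0.77 on the log2 scale (SE 0.09, adjusted p = 0.000132). It was at 44.0 and 85.5 CPM (mean of 2) with the non-targeting sgRNA. EIF4EBP3, a binding protein that sequesters eIF4E, rose from 4.51 ± 0.70 to 7.64 ± 1.53 CPM (0.75, SE 0.20, adjusted p = 0.0298). That call was lost without rapamycin replicate 1 or 3, without DMSO replicate 2 or 3, and without both replicate 1 libraries. MKNK2, a kinase of eIF4E, fell from 170 ± 10.7 to 121 ± 10.2 CPM (-0.49, SE 0.08, adjusted p = 0.00177). The other 2 that fell were LARP4B and PAIP1.

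Of 13 genes of eIF2 kinases, phosphatase subunits and alternative initiation, 1 rose and 2 fell (median -0.05). With the block 3 rose and 3 fell. For these genes and the paralogs below, the shares to compare are 6.8% of all genes called and 14.3% of abundant ones. With the block they are 17.1% and 29.6%. PPP1R15A and PPP1R15B guide the phosphatase that reverses eIF2 phosphorylation, and they moved in opposite directions. PPP1R15A rose by 0.38 (SE 0.07, adjusted p = 0.00673) and PPP1R15B had a change of -0.41 (SE 0.09, adjusted p = 0.0113). The PPP1R15B call was lost without rapamycin replicate 3 and without DMSO replicate 2 or 3. ATF4, the transcription factor translated when eIF2 is phosphorylated, went from 251 ± 18.6 to 194 ± 32.4 CPM (-0.37, SE 0.10, adjusted p = 0.0316). The ATF4 call was lost under 9 of 20 alternatives, among them the fits without any 1 of the HBG1 sgRNA libraries other than rapamycin replicate 1, and without either non-targeting rapamycin library. Of 12 tested paralogs of the members 3 fell and none rose (median -0.05). With the block 4 fell and EEF1A2, a tissue-restricted paralog of EEF1A1, rose (0.53, adjusted p = 7.2e-05). The 3 that fell without it were EIF1AD (-0.42, adjusted p = 0.0097), EIF4A3 of the exon junction complex (-0.39, 0.00815) and EIF3CL. The EIF3CL call adds no separate result, since its counts are not separable from those of the member EIF3C. The EIF1AD call was lost without DMSO replicate 3, the EIF4A3 call without rapamycin replicate 3, and the EIF3CL call without either of these or DMSO replicate 2.

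Of 22 tested genes for modification, assembly, recycling and rescue, 3 fell and none rose (median -0.07). That is 13.6%, near the 14.3% of abundant genes called. With the block 6 fell and none rose, beside 29.6% of abundant genes called. DOHH completes hypusine on EIF5A and changed by -0.47 (adjusted p = 0.00849), a call lost without rapamycin replicate 3. ABCE1, which splits ribosomes after release, changed by -0.38 (adjusted p = 0.0034). DPH2, needed for diphthamide on EEF2, changed by -0.36 (adjusted p = 0.0288), a call lost without rapamycin replicate 1 or 3, without DMSO replicate 1 or 2, without both replicate 1 libraries and with upper quartile scaling. The other 6 diphthamide genes on the list did not pass and lay between -0.17 (DPH7) and 0.11 (DPH5). Of 10 mitochondrial translation factors 1 fell, the elongation factor GFM1 (-0.43, adjusted p = 0.00337), and the median was -0.17. With the block 3 fell. The 1 of 10 without the block is no larger a share than among abundant genes. The 3 of 10 with it is near their 29.6%.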

How the data were processed

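Total RNA of 9 samples was poly-T selected and made into NEBNext Ultra libraries, as the labels' protocols state. The authors deposited unnormalised integer read counts for Ensembl gene IDs, in a single table. The submitters' processing notes name STAR 2.7.3a, featureCounts of Subread 2.0.0, R 4.1.2, limma 3.34.9 and edgeR 3.24.0, and the build GRCh38. Strand and multi-mapping settings are not given in the sources used here. Of 58347 IDs, 58039 matched GENCODE 29, which gave symbols, exon lengths and positions. Depth was 19797409 to 31619671 counts.

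Here counts were filtered with filterByExpr (minimum count 10), which left 23675 genes. They were scaled with TMM (factors 0.977 to 1.02) and fitted in one edgeR 4.0.16 quasi-likelihood model with 4 group means in R 4.3.3. Genes were called at a Benjamini-Hochberg adjusted p under 0.05 over all genes tested. CPM are TMM-scaled. The SE is the log2 fold change over the square root of F. Rapamycin against DMSO with the non-targeting sgRNA was not tested. The script was tested on simulated counts.

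Groups and replicate numbers came from the titles. Deviations of same-numbered HBG1 sgRNA libraries correlated at 0.553, 0.278 and 0.232 over 11498 genes, above the limit of 0.1, so by that limit the numbers pair them. Crossed libraries of replicates 2 and 3 correlated as well (0.258 and 0.194), so the pairing of these 2 is uncertain. Crossed libraries with replicate 1 did not (-0.407 to -0.324). Between guides the values were -0.07 and -0.07. Between replicates the chi-square per gene was 4.48 to 16.3.

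Members and lists were chosen with earlier results of these data known. Per-library values were given for called members with the 10 largest absolute log2 fold changes, for those alone in their direction within a role and for the 3 most abundant members per kb, and for others where the arms or the block bear on the reading. Of each pathway list the called genes with the 3 largest absolute changes were named. Alternatives were other scalings and filters, DESeq2 1.42.0, limma voom 3.58.1, libraries left out, and replicate blocks. The block within each guide and the fit without replicate 1 were added after the data were seen. Promoter sequences are RefSeq's.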

Additional observations from a re-analysis of the deposited data

How the results depend on the processing

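The median change of the 46 members with the HBG1 sgRNA stayed between -0.14 and -0.08 under all 20 alternatives. The replicate block gave 24 calls (5 higher, 19 lower) on the 6 HBG1 sgRNA libraries and 24 (5 and 19) within each guide over 9 libraries, in place of 13 (1 and 12). An additive model of guide and treatment gave 23 (4 and 19) and DESeq2 21, of which 3 were higher. The higher calls were 2 with upper quartile scaling, 2 with library totals, and 3 each with no low count filter, limma voom or both replicate 1 libraries left out. Leaving out 1 library gave 4 to 16 calls, 1 to 2 of them higher and 3 to 15 lower. The cause of these shifts was not tested. The calls between guides and for the interaction stayed at 0 under every alternative run. Of the 46 members, 6 changed direction under some alternative, none of them called in either fit. EEF1B2, at -0.01, became 0.028 with upper quartile scaling, 0.0076 with library totals, 0.0049 with a minimum count of 50 and 0.0031 in the additive model. EEF2K, at -0.02, became 0.022, 0.0036 and 0.0055 under the first 2 and the last of these, and 0.017 without both replicate 1 libraries. With 1 library left out, the ranges were -0.113 to 0.114 for EEF1B2, -0.093 to 0.036 for EEF2K, -0.023 to 0.063 for EIF4E2, -0.127 to 0.019 for EIF3K, -0.175 to 0.017 for EIF3M and -0.069 to 0.012 for EEF1D.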
